A study of Mus musculus with 14 samples.

Results

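Nnt, read through its transcript NM_008710, Wdfy1 and Entpd4 are 3 mouse genes known to differ between substrains of C57BL/6 mice, and they are described here across 14 arrays that read 45616 genes or unnamed transcripts. They were read from the 8 probes, of 56605 on the array, whose accession is NM_008710 (2 probes) or is listed by RefSeq under Wdfy1 (3 probes) or Entpd4 (3 probes). NM_008710 was selected on its difference between the genotypes on these same arrays, so that difference is given as a description with no test. Wdfy1 and Entpd4 were added for what is known of substrains, with earlier results of these data already known. Their p-values are thus not those of genes chosen blind to these arrays.

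Nnt encodes nicotinamide nucleotide transhydrogenase, an enzyme of the inner mitochondrial membrane. It uses the proton gradient to pass electrons from NADH to NADP+, and the NADPH made in this way feeds the glutathione and thioredoxin systems that remove peroxide. C57BL/6J mice carry a deletion of several exons of Nnt and make no functional enzyme, while C57BL/6N mice have the intact gene. Wdfy1 encodes a FYVE domain protein of early endosomes that brings the adaptor TRIF to TLR3 and TLR4. Entpd4 encodes a nucleoside diphosphate hydrolase of the Golgi and lysosomes, and a near-identical gene copy, Entpd4b, lies beside it in the C57BL/6J assembly.

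RNA came from splenocytes of 7 WT and 7 Sting gt/gt mice, 1 array per mouse. Both groups were 10 to 14 weeks old when immunized with chicken type II collagen in complete Freund's adjuvant, and spleens were taken 2 weeks later. The WT strain was labelled C57BL/6 and was bought from a national animal center in Thailand. The Sting gt/gt mice carry the golden ticket allele of Sting, made by ENU mutagenesis on a C57BL/6 background, and were provided from Aarhus University in Denmark. Neither source names the substrain, so the Sting allele, the origin of the mice and any C57BL/6 substrain difference cannot be told apart in these groups. The methods state that mice were kept and bred at Chulalongkorn University, and mention no littermate controls.

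The arrays were scanned on 2 days. Replicates 1 to 3 of both genotypes belonged to scan day 1 and replicates 4 to 7 to scan day 2, and limma gave 9659 of the 24908 tested genes (38.8%) an adjusted p under 0.05 for the difference between these days. On scan day 2 the WT arrays sat on slides 4 and 5 and all Sting gt/gt arrays on slide 6, so slide and genotype cannot be told apart there. Each value given here is the log2 processed intensity of a spot minus the log2 of its array's 75th percentile, which lay between 562 and 766. The Sting1 transcript, the gene that carries the allele, did not differ between groups beyond its error (Sting gt/gt minus WT 0.04, standard error 0.10, adjusted p = 0.9998 by limma). Defining markers of splenocytes were well detected, with Cd79b at 5.57 in WT and 5.38 in Sting gt/gt mice and Cd3e at 1.57 and 1.58. The Y chromosome genes Ddx3y, Eif2s3y and Kdm5d were well above background on 4 WT and 5 Sting gt/gt arrays and not on the other 5. The arrays with this signal were WT replicates 2, 4, 5 and 6 and Sting gt/gt replicates 1, 4, 5, 6 and 7. Every array of scan day 2 except WT replicate 7 had it, against a minority on scan day 1, so it ran partly with scan day. The labels do not give the sex of the mice, and its part in differences between the days was not tested.

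NM_008710 was higher in every Sting gt/gt mouse than in any WT mouse on its brighter probe. On this probe, A_55_P2144285, the WT arrays read 0.52, 0.73, 0.57, 0.52, 0.51, 0.65 and 0.66 for replicates 1 to 7. The Sting gt/gt arrays read 1.48, 1.36, 1.41, 1.95, 2.16, 2.18 and 1.88. On this scaling the WT mice lay within a narrow band, and the Sting gt/gt mice fell into a lower set, replicates 1 to 3, and a higher set, replicates 4 to 7, with no overlap between the sets or with WT. The mean was 0.59 ± 0.09 (SD, n = 7) in WT and 1.78 ± 0.35 (SD, n = 7) in Sting gt/gt mice. The difference was 1.18 on the log2 scale (standard error 0.14), which is a 2.27-fold higher signal. On the intensity scale the signal was 870 to 1214 in WT and 1438 to 3062 in Sting gt/gt mice. It was well above background on all 14 arrays, so the transcript was detected in WT spleen as well. It was the 1 transcript under an adjusted p of 0.05 (0.00401% of genes and 0.00315% of probes). Groups that did not overlap were seen for 11 genes (0.0442%) and 0.0472% of probes. This contrast is the one that chose it, and nothing is read from these shares.

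The dimmer probe, A_55_P2829145, pointed the same way with a smaller step. Its WT arrays read -3.48, -2.97, -3.48, -3.47, -3.81, -3.75 and -3.49, and its Sting gt/gt arrays -3.19, -2.56, -2.79, -2.93, -2.99, -2.55 and -2.98. Only WT replicate 2 lay inside the Sting gt/gt range. The difference was 0.64 (standard error 0.14), from -3.50 ± 0.27 (SD, n = 7) in WT to -2.85 ± 0.24 (SD, n = 7) in Sting gt/gt mice. Signals of this probe were low, between 46 and 98 units. Probe sequences were not analysed here, so whether either probe lies inside the exons missing from the C57BL/6J allele is not known. The table of gene names, which follows the C57BL/6J assembly, lists Nnt under another accession that no probe carries, and the name Nnt for NM_008710 rests on the accession alone.

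**Figure D1:**
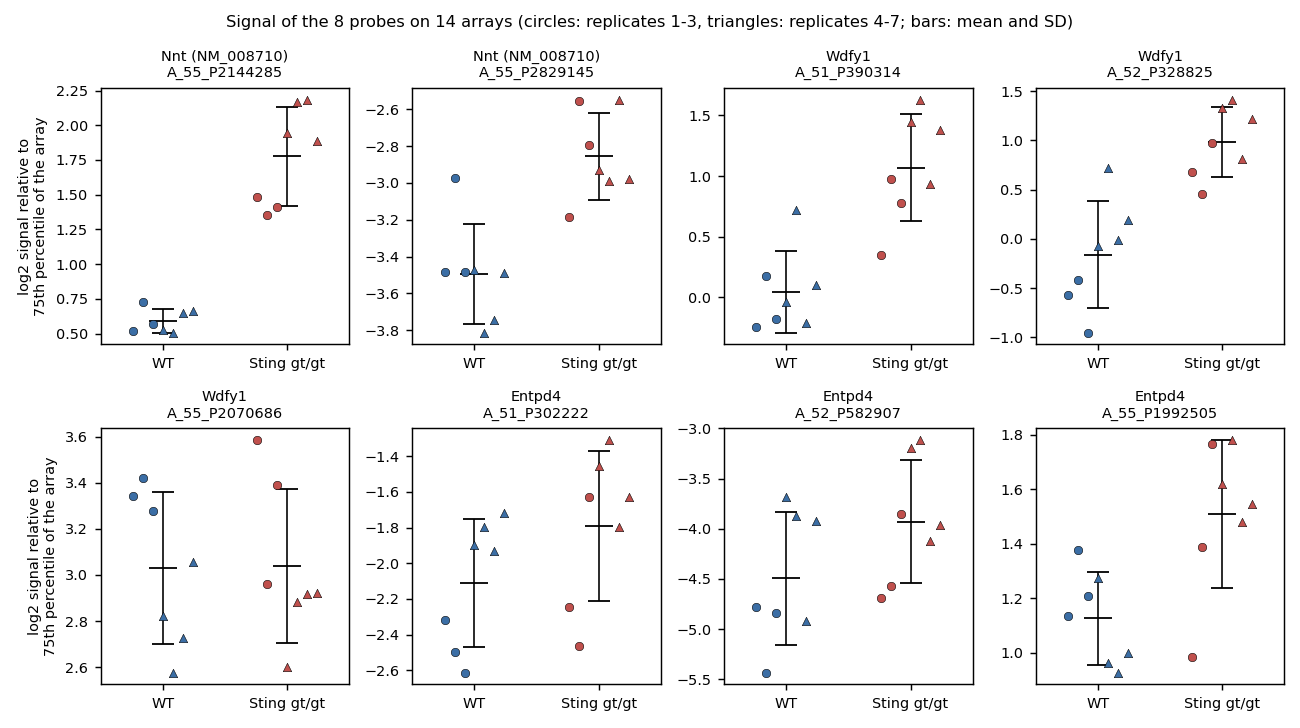
Log2 signal relative to the array's 75th percentile (y axis) for the 8 probes in WT and Sting gt/gt mice, 1 point per array, with circles for replicates 1 to 3, triangles for replicates 4 to 7 and bars for the mean and SD of 7 arrays. The y axes differ between panels and do not start at 0. The groups are apart on A_55_P2144285, WT 0.51 to 0.73 against Sting gt/gt 1.36 to 2.18, and lie on top of each other on the Wdfy1 probe A_55_P2070686.

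The Nnt step was the larger in replicates 4 to 7, given here as a description. The difference of A_55_P2144285 was 0.81 in replicates 1 to 3 (standard error 0.14) and 1.46 in replicates 4 to 7 (standard error 0.11). On this scaling the WT mean was close on both days, 0.61 ± 0.11 (SD, n = 3) and 0.59 ± 0.08 (SD, n = 4), whereas the Sting gt/gt mean was 1.42 ± 0.06 (SD, n = 3) and 2.04 ± 0.15 (SD, n = 4). The steps of the 2 days differed by 0.65 (standard error 0.15). On the slides that held both genotypes, both of scan day 1, the difference was 0.86 on slide 1 and 0.78 on slide 2. For the dimmer probe it was 0.04 on slide 1 and 0.93 on slide 2. In the deposited series table of log2 values, whose normalization is not stated, A_55_P2144285 spanned 9.63 to 10.47 in WT and 10.96 to 11.21 in Sting gt/gt, a difference of 1.13. There it was the WT arrays that parted by scan day, 10.24 to 10.47 in replicates 1 to 3 and 9.63 to 9.79 in replicates 4 to 7, and the Sting gt/gt arrays of both days overlapped. Which genotype moved between the days thus depended on the scaling.

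For Wdfy1 the probes of its different RefSeq transcripts did not move together. Both probes of transcript NM_001111279 read about 1 log2 unit higher in Sting gt/gt mice, and the brightest probe, of transcript NM_027057, read the same in both groups. None of the 3 passed adjustment over all probes in the fit of all arrays without a block. Of the 6 probes of Wdfy1 and Entpd4, 3 were under an unadjusted p of 0.05 by limma, against 3.43% of all probes tested. With scan day as a block 5 of the 6 were under it, against 7.32% of all probes.

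Probe A_51_P390314 of NM_001111279 read -0.25, 0.17, -0.18, -0.04, 0.72, -0.21 and 0.10 in WT replicates 1 to 7. In the Sting gt/gt replicates it read 0.35, 0.98, 0.78, 1.44, 1.63, 0.93 and 1.38. WT replicate 5 was the sole WT array inside the Sting gt/gt range, above replicate 1 of that group. The difference was 1.02 (95% interval 0.60 to 1.45, adjusted p = 0.472 by limma), from 0.05 ± 0.34 (SD, n = 7) to 1.07 ± 0.44 (SD, n = 7), and the two-sided exact permutation test over arrays gave p = 0.00117 before adjustment. The step was 0.78 in replicates 1 to 3 and 1.2 in replicates 4 to 7. In replicates 4 to 7 alone its adjusted p over all probes was 0.0458 by limma, where 1.69% of genes passed adjustment over genes. On slide 1 the step was 0.38 and on slide 2 1.15.

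The other probe of that transcript, A_52_P328825, read -0.57, -0.42, -0.95, -0.07, 0.72, -0.02 and 0.19 in WT mice and 0.68, 0.45, 0.97, 1.33, 1.41, 0.82 and 1.22 in Sting gt/gt mice. Again WT replicate 5 overlapped the Sting gt/gt range, here above replicates 1 and 2. The difference was 1.14 (95% interval 0.66 to 1.63, adjusted p = 0.502 by limma), or 2.21-fold, and the two-sided exact permutation test gave p = 0.00175. With scan day as a block its adjusted p was 0.0366 by limma, where 0.0063% of probes passed, and with the deposited series table it was 0.0213, where 0.00944% passed. The step was 1.35 in replicates 1 to 3 and 0.99 in replicates 4 to 7 (adjusted p = 0.0502 over all probes by limma), and 1.17 and 1.41 on slides 1 and 2. In WT mice this probe was higher on scan day 2 than on scan day 1 on this scaling, at 0.20 against -0.65.

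Probe A_55_P2070686 of NM_027057 read 3.34, 3.42, 3.28, 2.82, 2.58, 2.73 and 3.06 in WT mice. It read 3.59, 2.96, 3.39, 2.60, 2.88, 2.92 and 2.92 in Sting gt/gt mice. Replicates 4 to 7 were lower on average by 0.52 (adjusted p = 0.00178 by limma, 39% of probes), and the days overlapped, with WT replicate 7 above Sting gt/gt replicate 2. In the deposited series table the days lay on each other, at 11.99 to 12.48 and 12.09 to 12.72. The genotype difference was 0.0052 (95% interval -0.36 to 0.37, adjusted p = 0.99996 by limma), so a step of the size seen on the other probes lay outside its interval. Its sign turned under other scalings, at -0.02 with quantile normalization, -0.0065 with median centring and -0.05 with no scaling.

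The contrast between the probes of the different Wdfy1 transcripts differed on average between the groups, which overlapped. Probe sequences were not analysed here, so whether each probe reads only the transcript named for it is not known. Per array, the mean of both NM_001111279 probes minus the NM_027057 probe was -3.09 ± 0.69 (SD, n = 7) in WT and -2.01 ± 0.66 (SD, n = 7) in Sting gt/gt mice. This difference of differences was 1.08, with 1.1 in replicates 1 to 3 and 1.06 in replicates 4 to 7. The quantity was chosen after its values were seen, so it is given as a description with no test. It spanned -3.84 to -1.85 in WT and -3.07 to -1.22 in Sting gt/gt mice. Of the Sting gt/gt arrays, 3 lay above every WT array and the others overlapped. The NM_001111279 probes rose and fell together across mice within each genotype, with Pearson r = 0.78 in Sting gt/gt and 0.75 in WT over 7 arrays each. Their r with the NM_027057 probe was below 0 in both groups, from -0.85 to -0.46. These arrays share the scan days, and r is given as a description.

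**Figure D2:**
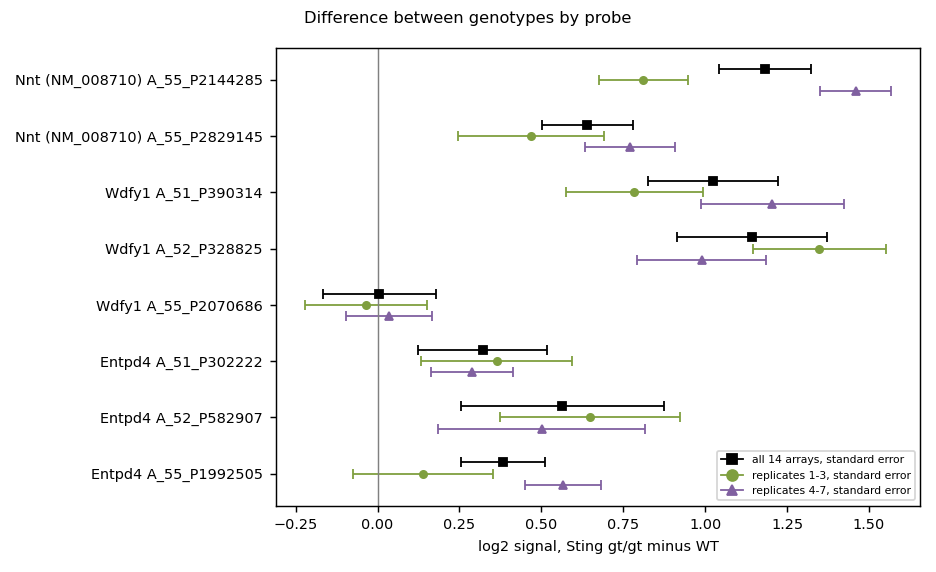
Difference in log2 signal, Sting gt/gt minus WT (x axis), for each of the 8 probes (y axis). Black squares are all 14 arrays, green circles replicates 1 to 3 and purple triangles replicates 4 to 7, each with its standard error. Both Nnt probes and both NM_001111279 probes of Wdfy1 lie right of 0, the NM_027057 probe of Wdfy1 sits at 0.0052, and the 3 Entpd4 probes lie between 0.32 and 0.56.

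Entpd4 was slightly higher in Sting gt/gt mice on its brightest probe before adjustment, with most of the step in replicates 4 to 7. Probe A_55_P1992505 read 1.14, 1.38, 1.21, 1.28, 0.96, 0.93 and 1.0 in WT mice and 0.99, 1.39, 1.77, 1.62, 1.78, 1.48 and 1.55 in Sting gt/gt mice. All Sting gt/gt arrays except replicate 1 lay above every WT array. The difference was 0.38 (95% interval 0.11 to 0.65, adjusted p = 0.9998 by limma), 1.13 ± 0.17 (SD, n = 7) against 1.51 ± 0.27 (SD, n = 7), and the two-sided exact permutation test gave p = 0.0117 before adjustment. It was under an unadjusted p of 0.05 together with 3.48% of genes.

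In replicates 1 to 3 the Entpd4 step was 0.14 and in replicates 4 to 7 it was 0.57. For the latter the adjusted p by limma was 0.0497 over all genes, where 1.69% of genes passed, and 0.0522 over all probes. The difference between these steps had an adjusted p = 0.352 by limma's interaction term, where 0.767% of genes passed. On slide 1 the sign was turned, at -0.27, and on slide 2 it was 0.18. With slide as a fixed block, which rests on the 5 arrays of these slides, the value was -0.08. The other probes had wider intervals. A_51_P302222 ran from -2.61 to -1.72 in WT and -2.47 to -1.31 in Sting gt/gt mice, a difference of 0.32 (95% interval -0.10 to 0.74, two-sided exact permutation p = 0.155). A_52_P582907 was well above background on only 4 WT and 5 Sting gt/gt arrays, and its difference was 0.56 (95% interval -0.10 to 1.22, two-sided exact permutation p = 0.131). With scan day as a block both had the same differences and were under an unadjusted p of 0.05 by limma, with an adjusted p = 0.663 for A_51_P302222 and 0.677 for A_52_P582907. No probe carries the accession of Entpd4b, and whether the Entpd4 probes also read that copy is uncertain.

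The 8 probes spanned much of the brightness range of tested genes, and the plot of level against difference sets them beside all of these genes. Levels of different probes are not compared here, since each probe binds with its own strength.

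**Figure D3:**
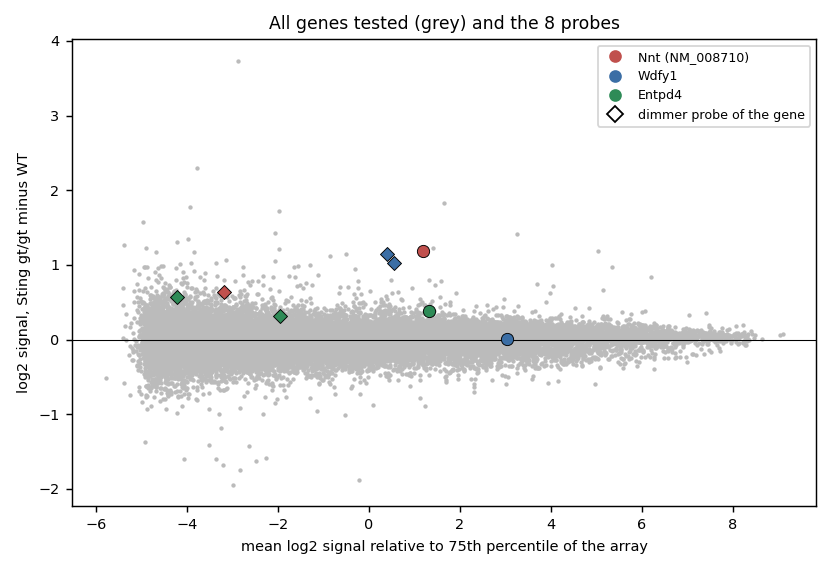
Mean log2 signal over the 14 arrays (x axis, mean of the group means, relative to the 75th percentile) against the difference Sting gt/gt minus WT (y axis) for the 24908 genes tested (grey) and the 8 probes (circles for the brightest probe of each gene, diamonds for the others). The brighter Nnt probe at 1.18 and the NM_001111279 probes of Wdfy1 at 1.02 and 1.14 lie above the bulk of genes of their level, and the NM_027057 probe of Wdfy1 lies in its middle.

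Without a block, no measured gene next to the 3 loci was under an unadjusted p of 0.05 by limma, which is what passing means for the neighbours and lists below. The nearest measured genes of Nnt on chromosome 13 were Mrps30 (0.07) and Emb (0.28) on one side and Paip1 (0.05) and 4833420G17Rik (-0.04) on the other, in Sting gt/gt minus WT. Paip1, next to Nnt with no gene between, encodes a partner of the poly(A)-binding protein. Beside Wdfy1 on chromosome 1 they were Ap1s3 (-0.06), Kcne4 (-0.56), Mrpl44 (0.21) and Serpine2 (0.05). Beside Entpd4 on chromosome 14 they were Gm16677 (-0.08), Gm31896 (0.06), Loxl2 (-0.23) and Gm16867 (2.29). None of the 12 passed, where 3.48% of genes did. With scan day as a block Kcne4 was lower and Gm16867 higher at an unadjusted p under 0.05 by limma, where 934 of 24908 genes were higher and 878 lower. In the wider list of 8 Nnt neighbours, 6 were tested, 3 were higher and 3 lower, and none passed. Tmem267 had the largest value there, -0.55, followed by Hmgcs1, an enzyme of sterol synthesis, at 0.18.

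Gm16867, the gene directly after Entpd4, showed an on or off pattern that cut across the genotypes. It was well above background on WT replicates 4 and 5 and Sting gt/gt replicates 3 to 7, between -1.66 and -0.44, and not on the other 7 arrays, between -7.09 and -5.84. In processed intensity this was 204 to 512 against 4.86 to 12.6. Detected and undetected arrays never shared a slide, with 3 slides each. Of the 24897 genes measured on all arrays, 7 had such a gap, over 4 log2 units with at least 3 arrays on each side, and 1 other, transcript AK034948, parted the same arrays. AK034948 lay between 0.81 and 2.12 on the 7 arrays and between -7.82 and -6.65 on the others. Both were singled out after their values were seen, and their on or off pattern was not tested against slide or genotype. The brightest Entpd4 probe, A_55_P1992505, did not share the pattern in WT mice, where replicates 4 and 5 read 1.28 and 0.96, within the range of the other WT arrays. In Sting gt/gt mice it did part the same arrays, with 1.48 to 1.78 in replicates 3 to 7 and 0.99 and 1.39 in replicates 1 and 2. On the dim probe A_52_P582907 the 7 arrays with Gm16867 read -4.12 to -3.11 and the others -5.44 to -4.57, except WT replicate 7 at -3.92. On A_51_P302222 they read -1.89 to -1.31 and the others -2.61 to -1.93, except WT replicate 7 at -1.72.

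**Figure D4:**
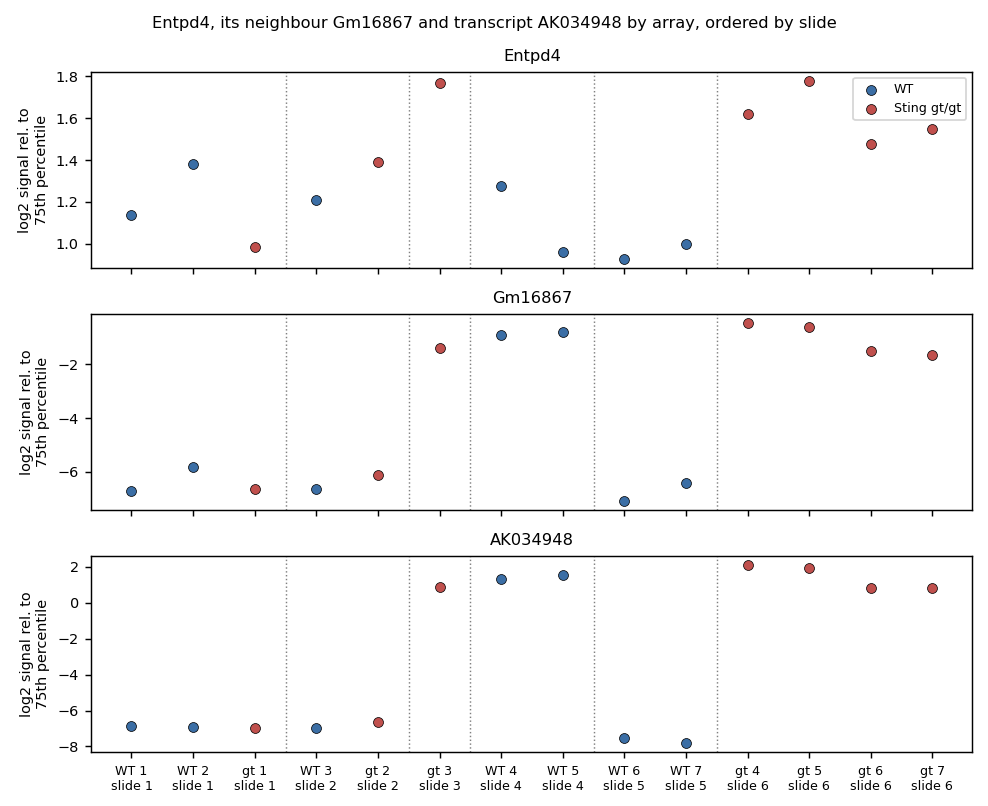
Log2 signal relative to the 75th percentile (y axes, which differ and do not start at 0) of Entpd4 (probe A_55_P1992505), Gm16867 and AK034948 on the 14 arrays, ordered by slide, with dotted lines between slides (x axis, WT blue, Sting gt/gt red). Gm16867 and AK034948 are high on slides 3, 4 and 6 and low on slides 1, 2 and 5, while this Entpd4 probe runs from 0.93 to 1.78 with no such gap.

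Genes known to differ between C57BL/6 substrains were looked up as a list that holds Nnt, Wdfy1 and Entpd4 themselves. Of 13, 9 were tested, 2 were higher at an unadjusted p under 0.05 and none was lower, where 1.86% of genes were higher. These 2 were Entpd4 and Fgfbp3, a carrier of fibroblast growth factors, at 0.23 (standard error 0.10, adjusted p = 0.9998 by limma). Fgfbp3 was the 1 called of the 7 tested genes beyond Wdfy1 and Entpd4. Wdfy1 entered the list through its NM_027057 probe, at 0.0052, and was not counted as higher. Its NM_001111279 probes, at 1.02 and 1.14, were each under an unadjusted p of 0.05 by limma, so the count depends on the probe taken. The median of the list was 0.0060, beside 0.02 over all genes. Cyfip2, a regulator of actin assembly with a missense change in C57BL/6N, had 0.0060, and Dock2, an exchange factor of lymphocyte migration, had 0.06. Mmrn1 was at 0.05 and Slc25a37, the mitochondrial iron importer, at -0.19. None of these 4 passed. Expression does not read a missense change, and Crb1, Gabra2 and Nlrp12 were not tested.

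Around Nnt, the other enzymes that supply NADPH were tested in 14 of 16 cases. None was higher and 1 was lower at an unadjusted p under 0.05, where 1.86% of genes were higher and 1.62% lower, with 10 above and 4 below 0 and a median of 0.11. Mthfd2, a mitochondrial folate dehydrogenase, fell by 0.48 (standard error 0.21, adjusted p = 0.9998 by limma), by 0.91 in replicates 1 to 3 and 0.15 in replicates 4 to 7. Idh2, which makes NADPH in mitochondria, had 0.23, Pgd 0.22 and Glud1 0.18, and none of these passed. The median of the list was -0.17 in replicates 1 to 3 and 0.27 in replicates 4 to 7, so its sign turned with the scan day.

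All 11 genes of mitochondrial peroxide removal were tested and none passed. Their median was 0.02, with 6 above and 5 below 0. Catalase, Cat, had the largest value at -0.39 (standard error 0.25), and Prdx5 and Gsr, glutathione reductase, were at 0.31 and 0.28. Prdx3, the mitochondrial peroxiredoxin, was at -0.05 and Sod2 at 0.10.

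Around Wdfy1, 12 of 13 genes of TLR3 and TLR4 signalling through TRIF were tested and none passed, with a median of -0.02. Ticam1, which encodes TRIF, was at 0.0016 (standard error 0.09), Tlr3 at -0.11 and Tlr4 at -0.0017. Ly96, the MD-2 partner of TLR4, had the largest value, -0.29. The other WDFY genes, Wdfy2, Wdfy3 and Wdfy4, were at 0.10, -0.03 and 0.14. Around Entpd4, 9 of 12 genes of nucleotide hydrolysis were tested and Entpd4 alone was under an unadjusted p of 0.05 (3.48% of genes). Entpd1, which encodes CD39, was at 0.08, Nt5e, which encodes CD73, at -0.10 and Ada, adenosine deaminase, at 0.21.

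**Figure D5:**
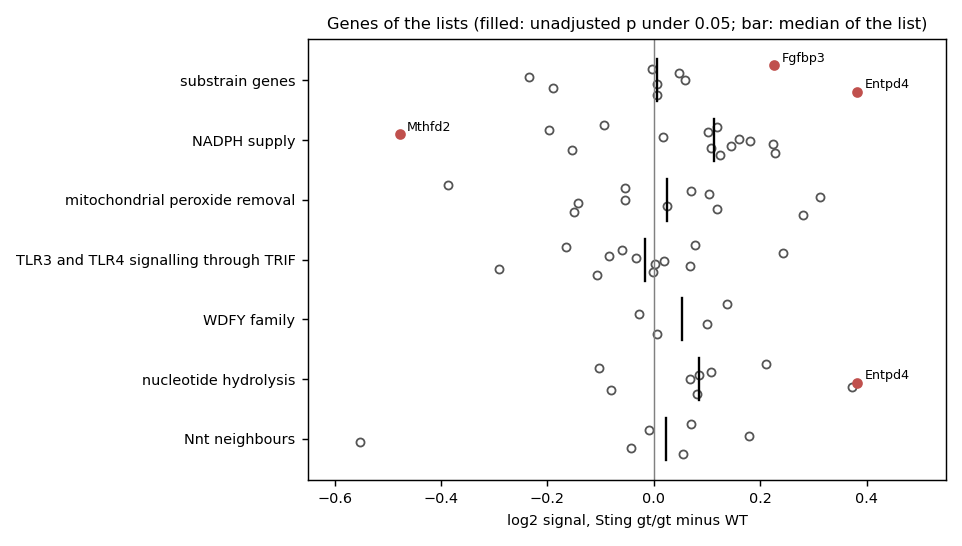
Difference in log2 signal, Sting gt/gt minus WT (x axis), of each tested gene in 7 lists (y axis), 1 circle per gene, filled where the unadjusted p by limma was under 0.05, with a bar at each list's median. The medians lie between -0.02 and 0.11, and only Fgfbp3, Entpd4 and Mthfd2 are filled. Each gene is drawn from its brightest tested probe, which for Wdfy1 is the NM_027057 probe. Nnt is not drawn in the substrain list because no probe carried its listed accession.

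Among cell type markers, all 7 erythroid genes had values below 0 (Sting gt/gt minus WT, median -0.30), and 1 of them was under an unadjusted p of 0.05, where 1.62% of genes were lower. Averaged over the list, the signal spanned 4.25 to 4.86 in WT and 3.82 to 5.08 in Sting gt/gt mice. All 6 B cell markers were below 0, with a median of -0.20, and none passed. By scan day all 6 were above 0 in replicates 1 to 3 (median 0.25) and below 0 in replicates 4 to 7 (median -0.51), so their sign turned with the scan day. Their average spanned 1.73 to 2.61 in WT and 1.71 to 2.49 in Sting gt/gt mice. All 7 neutrophil and all 5 NK cell markers were above 0, with medians of 0.18 and 0.16, and none passed. No T cell, macrophage and monocyte or dendritic cell marker passed either. No plasma cell marker passed without a block, where 5 of the 6 were above 0 and Prdm1 was below it, at -0.16. With scan day as a block Sdc1 and Tnfrsf17 were higher at an unadjusted p under 0.05 (3.75% of genes). Both turned sign between the days. Sdc1 was at -0.22 in replicates 1 to 3 and 0.84 in replicates 4 to 7, and Tnfrsf17 at -0.13 and 0.76. The plasma cell median was -0.10 in replicates 1 to 3 and 0.44 in replicates 4 to 7. In bulk splenocytes, fewer cells of a type and less RNA per cell cannot be told apart, and the part of these shifts in the values of Wdfy1 and Entpd4 was not tested.

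The genes whose level followed each of the 3 most closely were read over the 14 arrays among about as many genes with a symbol, 14720 for NM_008710. The likeness is Pearson's r, given as a description, since all genes share the arrays, the scaling and the scan days. NM_008710 was most like Dmac1 (r = 0.90), Opa1 (0.88), Cbr4 (0.86), Snapin (0.86) and 5730408K05Rik (0.85). Opa1 encodes a GTPase of mitochondrial fusion. Their own differences were small beside that of NM_008710, 0.21 for Dmac1 and Opa1 and 0.17 for Cbr4. It was least like Aak1 (-0.85), Zkscan3 (-0.83) and Perm1 (-0.83). After the mean of each genotype and scan day was subtracted, the closest were Rsu1 (0.91), Akap13 (0.89) and D930015M05Rik (0.84), which are other genes.

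The NM_027057 probe of Wdfy1 was most like Tnnc2 (r = 0.95), Vstm4 (0.93), Sim2 (0.92), Ptms (0.90) and Defa24 (0.90), and least like Cpsf6 (-0.93), Shprh (-0.92) and Ikbkg (-0.92). Within genotype and scan day the closest were Plekha6 (0.94), P3h3 (0.91) and Stard13 (0.89). Entpd4 was most like Sco2 (r = 0.86), Dgcr6 (0.85), Tmem205 (0.84), Ccdc85b (0.84) and Isoc2b (0.83). Among the genes least like it were Atg4a (-0.86) and Bnip3l (-0.85). Within genotype and scan day its closest genes were Sowahc (0.95), Tle6 (0.90) and Rrnad1 (0.90).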

How the data were processed

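The authors made intensity values of 14 one-colour arrays with Agilent Feature Extraction 11.0.1.1, whose processed signal is background-corrected and not scaled between arrays. They also deposited a table of log2 values with no stated normalization, which followed the log2 intensity array by array (r from 0.997 to 0.999) and had column medians of 5.49 to 5.52.

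Here the 75th percentile of non-control spots was subtracted on the log2 scale, flagged spots were dropped and spots of a probe averaged. A probe needed to be well above background on 7 arrays to be tested (31766 of 56605 were). RefSeq accessions of a later assembly gave names and neighbours only (58.3% of probes), and a gene was read from its brightest tested probe. Genotypes were compared by limma 3.58.1 in R 4.3.3 without covariates, with Benjamini-Hochberg adjustment over all genes, or over all probes where a probe is named. Single values also had a two-sided exact permutation test over 3432 divisions of the arrays. For comparisons of any kind the methods name t-tests or Mann-Whitney tests. The fit was tested on simulated data. Precision is limited by the number of arrays.

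The members, the 15 gene lists and the tests were chosen with earlier results of these data known. Genes named were each member's probes, Sting1, list genes past an unadjusted p of 0.05 or with the largest values (at most 4), the nearest measured neighbours and the genes of highest and lowest correlation. A few further list genes were named after their values were seen, and some genes under the rule are not reported here. Alternatives covered scaling, normexp background correction (offset 50), the deposited table, filters, probes, the t-test, replicate number, scan day, slide and each array left out. Same-numbered arrays deviated together (r from 0.16 to 0.53 across genes), and without scan-day means r was -0.41 to 0.25, so the pairing by replicate number comes with the scan day.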

Additional observations from a re-analysis of the deposited data

Results flagged for a closer look

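Of the values of the 8 probes, 3 lay apart from the others of their group by Dixon's criterion at the 95% level, among 32 groups examined, where chance flags about 1 in 20. On the dimmer Nnt probe, A_55_P2829145, WT replicate 2 read -2.97, above the next WT array at -3.47, in a group of 7. On the same probe, among Sting gt/gt replicates 4 to 7, replicate 6 read -2.55, above the next at -2.93. On the NM_027057 probe of Wdfy1, A_55_P2070686, Sting gt/gt replicate 4 read 2.60, below the next of replicates 4 to 7 at 2.88. No array was outlying on the brighter Nnt probe.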

How the results depend on the processing

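The Nnt difference of A_55_P2144285 stayed positive under all 30 alternatives. It moved by more than the spread between replicates when its probes were averaged (0.91), with slide as a fixed block (0.83), in replicates 1 to 3 alone (0.81) and in replicates 4 to 7 alone (1.46), and lay between 1.11 and 1.25 with each array left out. Its steps on the 2 days differed by 0.65, also with only probes above background on all arrays, and between 0.59 and 0.70 with each array left out. Wdfy1, read from its NM_027057 probe at 0.0052, was reversed with quantile normalization (-0.0207), median centring (-0.00654), no scaling (-0.0488), normexp (-0.0207) and the series table (-0.0223). This probe was also reversed with slide as a fixed block (-0.0185) and in replicates 1 to 3 alone (-0.0350), and ran from -0.0864 to 0.0778 with each array left out. Its sign turned without WT replicate 4 (-0.0295), 5 (-0.0710) or 6 (-0.0455) and without Sting gt/gt replicate 1 (-0.0864) or 3 (-0.0534). With the probes of Wdfy1 averaged the difference was 0.72 (adjusted p = 0.119 by limma). The NM_001111279 probes stayed positive in every alternative fitted for them, at 0.71 to 1.02 on A_51_P390314 and 1.09 to 1.27 on A_52_P328825. With each array left out they ran from 0.93 to 1.14 and from 1.01 to 1.29. Entpd4 was reversed with slide as a fixed block (-0.0778), with 0.34 to 0.47 over arrays left out. In replicates 4 to 7 alone (0.57) it passed adjustment over genes but not over probes. The cause of these changes was not tested.

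Of 24908 genes, 868 were under an unadjusted p of 0.05. The count was 1928 with the series table, 1416 with the replicate block, 1812 with scan day as a block, 445 with slide as a random block and 5805 in replicates 4 to 7 alone. With arrays left out it ran from 496, without Sting gt/gt replicate 6, to 1967, without Sting gt/gt replicate 1, and was 539 without Sting gt/gt replicate 5. The 1 transcript past adjustment became 0 with median centring, no scaling, the replicate block and slide as a fixed block, 2 with probes averaged and 422 in replicates 4 to 7 alone, and 1 to 6 with arrays left out, 6 without WT replicate 4. The count was also 1 in replicates 1 to 3 alone, but the gene that passed there was not NM_008710. The block by replicate number changed no adjusted call of Wdfy1 or Entpd4, and the unadjusted p by limma with this block was 0.00264 on A_52_P582907 and 0.0321 on A_51_P302222. Normexp used the median signal in place of the mean signal, which was not used here.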
